A study of Danio rerio with 12 samples.

Results

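The genes described here are 24 of the 32520 genes of a zebrafish liver expression table, with a higher mean level in females than in males. Vitellogenins and other well-known groups were left out by symbol alone. The 24 genes were chosen from the measured values, which are in TPM (the share of a library's transcripts that come from a gene, a level corrected for gene length and for the size of the library). The lowest of the 6 female values had to reach 5 TPM, and the mean of the 6 female values had to be at least 3 times the mean of the 6 male values. Of the 35 genes past both thresholds, 11 were set aside by name, because they begin with vtg, cyp, rpl, rps, apo or fabp or are nots, fam20cl or esr1. A gene of such a group under another symbol would remain among the 24. Since the female and male values chose the genes, their levels in the sexes are a description and carry no test.

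Liver RNA was sequenced from wild-type zebrafish of the TU strain, in 12 libraries that form 4 groups of 3. The groups were male DMSO, male BPAF, female DMSO and female BPAF, all adults aged 4 months and all sampled after 28 days of treatment. BPAF (bisphenol AF) is a fluorinated relative of the plastics monomer bisphenol A and was given in the water at 10 μg/L, while the control fish received the solvent DMSO at 0.0001%. The question of the study was whether long-term BPAF affects male and female liver differently. The labels give no DMSO level for the exposed fish, and they do not say whether a library holds 1 liver or several, or whether libraries of a group came from separate fish. The p-values below therefore measure only the spread between these libraries, which may be technical.

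The liver of an egg-laying female fish works in part for the ovary. Estrogen from the ovary acts on hepatocytes, which then make vitellogenin, the yolk precursor, in large amounts and release it into the blood, from where growing oocytes take it up. A protein meant for export is threaded into the endoplasmic reticulum (ER) while it is being translated, is folded and glycosylated there, and leaves through the Golgi apparatus. Vitellogenin also carries lipid and calcium, so that yolk production draws on lipid synthesis and on calcium binding as well as on protein synthesis.

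The livers were hepatocyte-rich in both sexes, but the libraries of the sexes differed in composition. Vitellogenins, counted by the symbol vtg, alone made up 19.5% to 25.7% of all TPM in the females and at most 0.0108% in the males. The summed level of 22 hepatocyte marker rows ran from 83107 to 111425 TPM in females and from 243770 to 312560 TPM in males. Between 7007 and 9217 genes reached 1 TPM in a female library and between 9108 and 12313 in a male library, where male BPAF 1 was the highest. As deposited, more genes were lower than higher in females. The median log2 difference, female minus male, over the 11389 tested genes was -0.66 as deposited, -0.06 after trimmed-mean scaling and -0.01 after quantile normalization. Of the 22 hepatocyte marker rows, 20 were lower in females as deposited and 17 after quantile normalization. After trimmed-mean scaling 9 of them were lower and 1 higher. Every female-to-male ratio below is of the deposited values unless a scaling is named. Markers of intestine summed to 257 to 907 TPM in females and 1297 to 8908 TPM in males. apoa4b.1 alone gave 238.11 TPM of the lowest female sum (female DMSO 1) and 1099.29 TPM of the lowest male sum (male DMSO 2). fabp6 alone gave 4290.48 TPM of the highest sum (male BPAF 3). Of 22 tested markers of intestine, 20 were lower in females as deposited, 7 after trimmed-mean scaling and 6 after quantile normalization. Markers of macrophages and leukocytes summed to 188 to 572 TPM in females and 391 to 5366 TPM in males, where 4762.51 TPM of the highest sum (male DMSO 3) came from lect2l alone. Of 16 tested markers of macrophages and leukocytes, 10 were lower in females as deposited and 2 under either scaling. Of 11 tested erythrocyte markers, 11 were lower as deposited, 7 after trimmed-mean scaling and 8 after quantile normalization. Of 17 tested biliary, stellate and endothelial markers, 16 were lower as deposited and 9 under either scaling. The part of these cells in the male values was not tested. In bulk liver, fewer cells of a type and less RNA per cell cannot be told apart.

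Together the 24 genes took 2.25% to 3.19% of all TPM in a female library and 0.0525% to 0.0759% in a male library. Most of the female share came from a single gene, CABZ01042594.1, and without it the share was 0.329% to 0.452% in females and 0.0523% to 0.0758% in males. The female-to-male ratio of means ran from 3.02 to 7499, with a median of 4.83. It was 10 or more for 9 genes, between 5 and 10 for 2 genes and under 5 for 13 genes. The female and male libraries did not overlap for 17 of the 24 genes and overlapped for 7, namely si:dkey-241l7.4, si:dkey-241l7.2, egln3, mid1ip1l, sult3st3, BX465838.2 and fam49ba. Among all tested genes, 1.57% (179 of 11389) had every female library above every male library, but the rule selects for this, so nothing is read from the difference. All 24 genes passed the filter on low values, which a lowest female value of 5 TPM guarantees. Of the 24 symbols, 15 are descriptive and 9 are clone-based names, of which CABZ01035356.1 alone has a description of its function in the table.

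**Figure D1:**
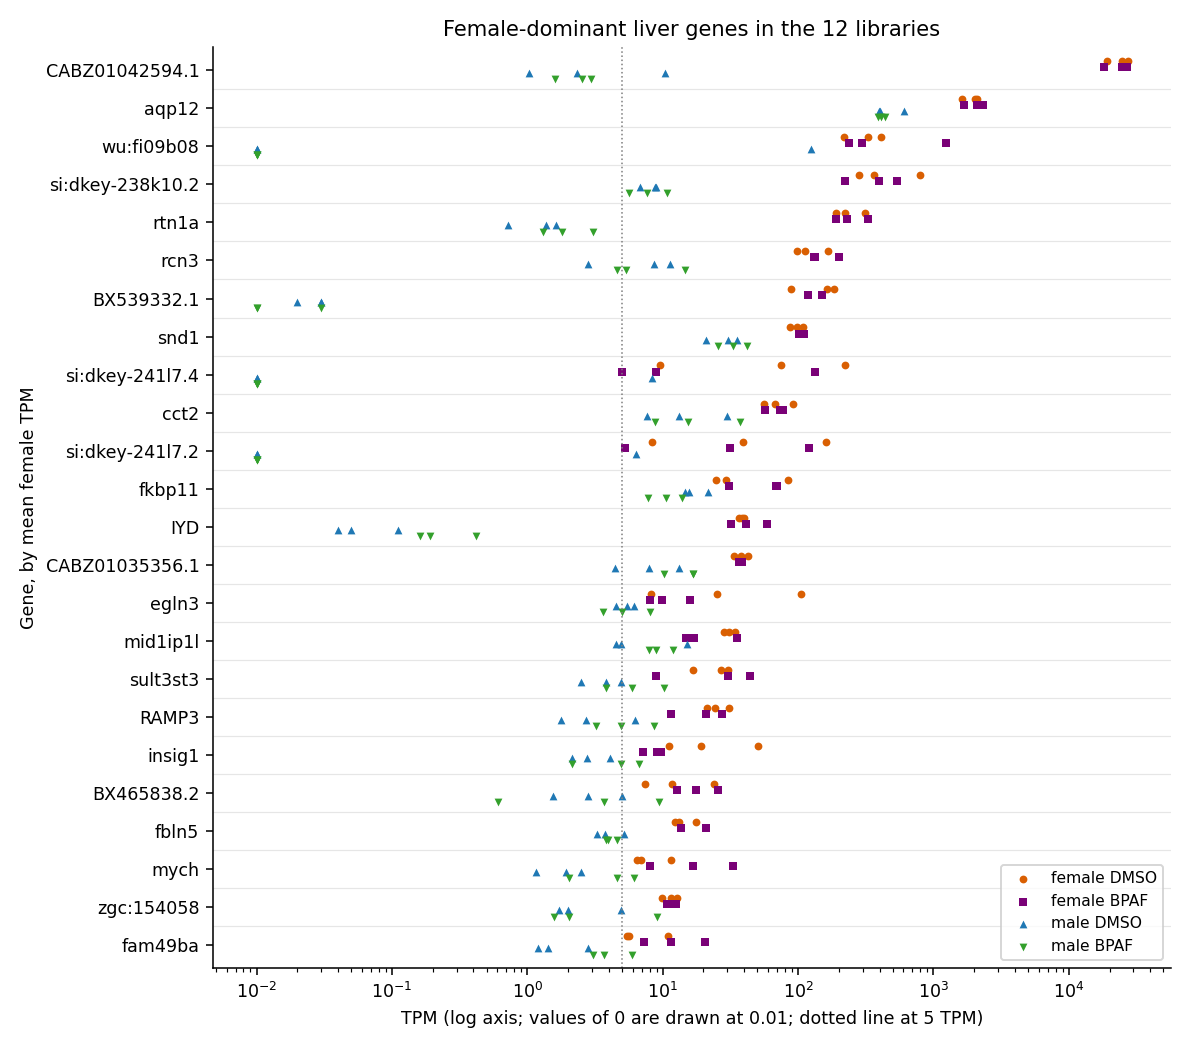
Level of each of the 24 genes in the 12 libraries, in TPM on a log axis, with female DMSO as circles, female BPAF as squares and male DMSO and male BPAF as triangles; values of 0 are drawn at 0.01 and the dotted line marks 5 TPM. CABZ01042594.1 lies between 18190.67 and 27143.12 TPM in the females, and the female and male points overlap for 7 genes.

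**Figure D2:**
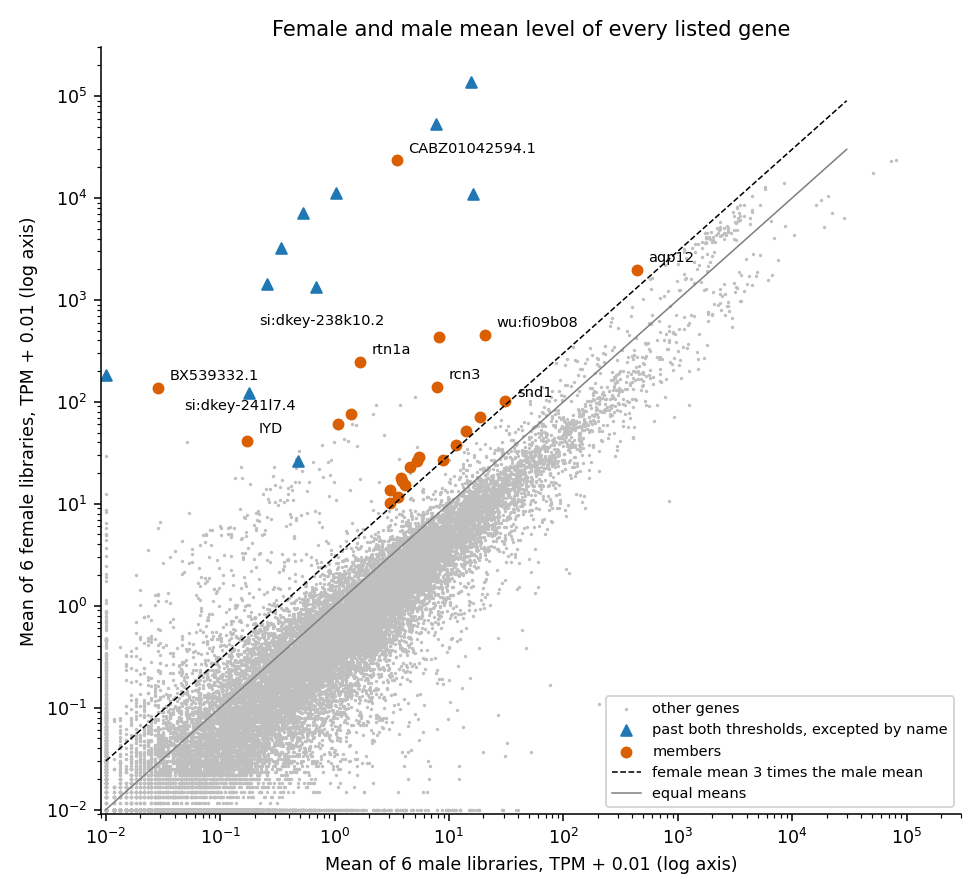
Mean of the 6 female libraries against the mean of the 6 male libraries for every gene in the table, both as TPM + 0.01 on log axes, with the 24 genes as circles, the 11 genes excepted by name as triangles and the dashed line at a ratio of 3. Ratios of 10 or more belong to 9 of the 24 genes, and most of the others lie close to the dashed line.

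The most abundant of the 24 genes has no description in the deposited table. CABZ01042594.1 (ENSDARG00000103451) was at 24831.60, 27143.12 and 19002.21 TPM in the female DMSO libraries, at 18190.67, 24522.31 and 26720.74 TPM in female BPAF, at 2.33, 10.40 and 1.03 TPM in male DMSO and at 2.52, 1.61 and 2.93 TPM in male BPAF. Its female mean was 23402 ± 3868 TPM and its male mean 3.47 ± 3.46 TPM (SD, n = 6 each), a ratio of 6744, and the lowest female library stood 1749 times above the highest male library. The female libraries spread little, with a coefficient of variation (SD as a percent of the mean) of 16.5%. BX539332.1 (ENSDARG00000093425), also without a description, was at 184.82, 89.31 and 162.31 TPM in female DMSO and at 150.35, 118.79 and 119.32 TPM in female BPAF, and at most 0.03 TPM in any male. Its ratio of 7499 rests on male values between 0 and 0.03 TPM, with 2 of the 6 male libraries listed at 0, so that its size is poorly fixed. The depth behind these values is unknown, because the table holds no read counts.

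Another pair of clone-named genes was also abundant in females. si:dkey-238k10.2 (ENSDARG00000104380) was at 365.71, 792.54 and 279.53 TPM in female DMSO, at 221.61, 534.61 and 394.24 TPM in female BPAF, at 8.76, 8.91 and 6.78 TPM in male DMSO and at 10.84, 7.61 and 5.67 TPM in male BPAF. That is a female mean of 431 ± 207 TPM against a male mean of 8.10 ± 1.82 TPM, a ratio of 53.3, with the lowest female 20.4 times above the highest male. wu:fi09b08 (ENSDARG00000111458) was at 218.21, 410.76 and 329.15 TPM in female DMSO and at 1243.53, 297.27 and 237.42 TPM in female BPAF, with male DMSO 2 at 123.97 TPM and the other 5 males listed at 0. A single male library thus supplies its whole male mean of 20.7 TPM, on which its ratio of 22.1 rests, and female BPAF 1 stands well above the other 5 females. BX465838.2 (ENSDARG00000093993) was far lower, at 11.66, 24.10 and 7.41 TPM in female DMSO, 17.55, 12.66 and 25.83 TPM in female BPAF, 1.55, 5.0 and 2.81 TPM in male DMSO and 0.61, 9.44 and 3.66 TPM in male BPAF. Its sexes overlapped, since male BPAF 2 was above female DMSO 3. zgc:154058 (ENSDARG00000069795) was at 11.58, 12.84 and 9.82 TPM in female DMSO and at 10.81, 12.60 and 12.04 TPM in female BPAF, among the steadiest female levels of the 24 genes. In the males it was at 4.94, 2.0 and 1.71 TPM (DMSO) and at 9.07, 2.04 and 1.58 TPM (BPAF), where male BPAF 1 came close to the lowest female library.

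rtn1a, rcn3 and fkbp11 encode proteins of the ER, and fkbp11 is the only gene of the 24 on one of the 4 secretory pathway lists. rtn1a encodes a reticulon, a protein that bends the ER membrane into tubules, and rtn1a was at 222.42, 313.15 and 190.56 TPM in female DMSO, at 191.52, 330.74 and 231.40 TPM in female BPAF, at 1.62, 1.37 and 0.72 TPM in male DMSO and at 3.05, 1.80 and 1.31 TPM in male BPAF. Its female mean of 247 ± 60.8 TPM stood at 149.9 times the male mean of 1.65 ± 0.780 TPM, and every female library was at least 62.5 times above every male library. Of the 3 other reticulons whose female and male means summed to 2 TPM or more, rtn4a, rtn3 and rtn4b, all were lower in females, with ratios of 0.191 to 0.705, although rtn4a turned to 1.31 after trimmed-mean scaling. rcn3 encodes reticulocalbin, a calcium-binding protein of the ER lumen, and rcn3 was at 98.79, 166.99 and 111.56 TPM in female DMSO, at 132.81, 200.81 and 131.93 TPM in female BPAF, at 8.62, 11.26 and 2.79 TPM in male DMSO and at 14.63, 5.33 and 4.58 TPM in male BPAF. The ratio was 17.9 and the sexes did not overlap. The 4 related reticulocalbin and calumenin genes had ratios of 0.312 to 0.771, of which calua (1.56) and calub (1.16) turned above 1 after trimmed-mean scaling.

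fkbp11, an ER-located prolyl isomerase that helps secreted proteins to fold, was less even. fkbp11 was at 29.50, 84.86 and 24.95 TPM in female DMSO, at 30.91, 69.60 and 69.00 TPM in female BPAF, at 14.62, 21.67 and 15.73 TPM in male DMSO and at 7.75, 10.66 and 13.81 TPM in male BPAF. Its female libraries fell into 3 low and 3 high values that did not follow the treatment, and the ratio was 3.67. Of 9 other FK506-binding protein genes, 2 had higher and 7 lower means in females, ratios 0.390 to 1.66, and after trimmed-mean scaling 4 were higher and 5 lower. snd1 encodes a nuclease-like protein with a Tudor domain that binds RNA and acts in gene regulation, and snd1 was at 108.80, 87.63 and 98.14 TPM in female DMSO, at 100.92, 111.26 and 104.72 TPM in female BPAF, at 35.19, 20.78 and 30.25 TPM in male DMSO and at 41.63, 25.57 and 33.33 TPM in male BPAF. Its female mean of 102 ± 8.51 TPM was 3.27 times its male mean of 31.1 ± 7.35 TPM, without overlap.

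The wider secretory pathway was tested with limma for females against males over both treatments, with the 24 genes left out. As background, 3.94% of all tested genes were higher in females and 55.4% lower at an adjusted p under 0.05, against 12.3% and 14.8% after trimmed-mean scaling and 13.9% and 12.7% after quantile normalization. For ER translocation and signal peptide removal, 5 of 22 tested genes were higher and 3 lower as deposited. Their median log2 difference was -0.22, beside -0.66 for all tested genes. That median was 0.60 after trimmed-mean scaling and 0.65 after quantile normalization, and 11 genes were higher and 0 lower under either scaling. Among them ssr3, a subunit of the translocon-associated complex, had a female mean of 669 ± 108 TPM beside a male mean of 264 ± 56.5 TPM (limma adjusted p = 0.00022), and its partner ssr2 at 610 ± 79.1 TPM and 259 ± 50.1 TPM (limma adjusted p = 0.000259). sec61a1, the channel subunit itself, stood at 348 ± 47.8 TPM and 120 ± 43.5 TPM (limma adjusted p = 0.000291). Of 24 N-glycosylation genes, 1 was higher and 5 lower as deposited but 13 higher and 0 lower under either scaling. The 24 other ER folding genes gave 0 higher and 5 lower as deposited and 4 higher and 1 lower under either scaling. The 36 genes of ER-to-Golgi transport gave 3 higher and 17 lower as deposited, 8 and 2 after trimmed-mean scaling and 8 and 1 after quantile normalization. The direction of these 3 last lists, and of the median for ER translocation, thus depends on the scaling, whereas ssr3, ssr2 and sec61a1 were higher under each. The median over all tested genes moved with the scaling too, and the medians of these lists lay above it in each setting. For ER-to-Golgi transport as deposited the gap was small (-0.647 beside -0.656). sec61a1 was named because its sex ratio stood nearest below 3 among genes with descriptive symbols not excepted by name. ssr3 and ssr2 were named after their values were seen. The p-values of these genes are therefore a description. So are the counts of the lists, which were chosen with earlier results of these data known.

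cct2 and CABZ01035356.1 each have a close copy in the table. cct2 encodes a subunit of the chaperonin that folds actin and tubulin in the cytosol. The cct2 row among the 24 (ENSDARG00000087206) was at 91.91, 56.43 and 67.76 TPM in female DMSO, at 74.15, 56.54 and 77.75 TPM in female BPAF, at 13.18, 7.71 and 29.89 TPM in male DMSO and at 15.26, 8.76 and 36.94 TPM in male BPAF, a ratio of 3.80 with no overlap. A second row with the symbol cct2 (ENSDARG00000104674) had a ratio of 1.44, and the sum of both cct2 rows was 281 ± 38.6 TPM in females and 164 ± 48.3 TPM in males, a ratio of 1.71. After trimmed-mean scaling the ratio of that sum was 3.05, and that of the cct2 row among the 24 was 6.73. The other 7 chaperonin subunit genes had ratios of 1.002 to 1.51, or 1.86 to 2.80 after trimmed-mean scaling. No other subunit thus reached the ratio of the cct2 row among the 24. CABZ01035356.1 (ENSDARG00000114210) is described as obg-like ATPase 1, and CABZ01035356.1 was at 33.91, 37.84 and 42.42 TPM in female DMSO, at 36.62, 36.96 and 38.27 TPM in female BPAF, at 13.29, 4.44 and 7.92 TPM in male DMSO and at 16.86, 10.16 and 16.84 TPM in male BPAF. It had the smallest female spread of the 24, a coefficient of variation of 7.38%, and a ratio of 3.25. ola1, the gene that carries the usual symbol of that ATPase, had a ratio of 1.23, and CABZ01035356.1 and ola1 summed to 117 ± 14.7 TPM in females and 76.3 ± 11.9 TPM in males, a ratio of 1.54. After trimmed-mean scaling ola1 had a ratio of 2.31 and the sum of CABZ01035356.1 and ola1 a ratio of 2.90. No source states how reads were divided between such copies, and the ratios of cct2 and CABZ01035356.1 alone are therefore uncertain.

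The lists of protein synthesis genes held more higher than lower genes in females. These lists were chosen with earlier results of these data known, and the rule compares the sexes too. Their counts are therefore a description and give no support. Of 60 translation factors and related genes, 24 were higher and 10 lower in females as deposited, 41 and 0 after trimmed-mean scaling and 43 and 0 after quantile normalization. eef1b2, an exchange factor for the elongation factor that brings in aminoacyl-tRNA, had a female mean of 2200.0 ± 247 TPM beside a male mean of 778 ± 175 TPM (limma adjusted p = 6.67e-05), and eif5a, which helps ribosomes through difficult stretches, at 1602 ± 280 TPM and 570 ± 104 TPM (limma adjusted p = 9.04e-05). Both lay just outside the rule, with ratios of 2.83 and 2.81. Like sec61a1, both were named because their sex ratios stood nearest below 3 among the genes with descriptive symbols not excepted by name. Their p-values for the sexes are therefore a description and give no support. Of 20 aminoacyl-tRNA synthetases, 3 were higher, among them iars1, and 0 lower, and 12 and 13 were higher under the scalings. iars1, which loads isoleucine, had means of 34.6 ± 7.49 TPM (females) and 14.4 ± 3.08 TPM (males) (limma adjusted p = 0.000764). iars1 was named after its values were seen, so its p-value is likewise a description. By contrast, 16 of 22 amino acid transporters were lower and 1 higher as deposited, and 5 and 2 after trimmed-mean scaling. Of all tested genes, 55.4% were lower and 3.94% higher as deposited, and 14.8% and 12.3% after trimmed-mean scaling.

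Sterol and lipid control was represented by insig1 and mid1ip1l. insig1 encodes an ER membrane protein that holds back the activation of sterol-regulatory transcription factors when sterol is plentiful. insig1 was at 11.15, 19.12 and 50.21 TPM in female DMSO, at 9.78, 7.15 and 9.09 TPM in female BPAF, at 2.78, 4.08 and 2.14 TPM in male DMSO and at 6.64, 2.14 and 4.96 TPM in male BPAF. The sexes did not overlap, but female DMSO 3 stood far above the other females, and the lowest female was only 1.08 times the highest male. The ratio was 4.68 over all libraries, 8.94 among DMSO libraries and 1.89 among BPAF libraries. Without female DMSO 3 the ratio of insig1 was below 3, so its place in the set rests on that library. mid1ip1l, whose mammalian relatives activate acetyl-CoA carboxylase in fatty acid synthesis and which in zebrafish eggs is a maternal factor that acts on the cell cortex, was at 34.11, 30.99 and 28.28 TPM in female DMSO and at 35.65, 17.10 and 14.96 TPM in female BPAF. In males mid1ip1l was at 4.92, 15.21 and 4.52 TPM (DMSO) and at 8.93, 7.90 and 11.93 TPM (BPAF), so that male DMSO 2 lay above female BPAF 3, and its ratio of 3.02 was the lowest of the 24. mid1ip1b, its relative, was lower in females as deposited, with a ratio of 0.567, and at 1.09 after trimmed-mean scaling.

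The lipid pathways around these genes were mixed. As deposited, 3.94% of all tested genes were higher and 55.4% lower in females. These shares were 12.3% and 14.8% after trimmed-mean scaling and 13.9% and 12.7% after quantile normalization. Counts of lower genes near 55.4% as deposited are not read as a pathway difference. The lists were chosen with earlier results of these data known, so their counts are a description. Of 20 cholesterol synthesis genes other than insig1, 2 were higher in females (sqlea and fdft1) and 2 lower (ldlra and stard4) as deposited. After trimmed-mean scaling 10 were higher and 1 lower, and after quantile normalization 11 and 1. Their median log2 difference as deposited was 0.08, beside -0.66 for all tested genes. ldlra, the receptor that takes up low-density lipoprotein, had means of 7.54 ± 3.80 TPM (females) and 38.2 ± 17.6 TPM (males) (limma adjusted p = 0.000681) and remained lower under both scalings. Of 23 genes of fatty acid synthesis, elongation and desaturation, 2 were higher (scd and srebf1) and 7 lower as deposited, and 7 higher and 3 lower under either scaling. me1, which supplies NADPH for lipid synthesis, was among the lower genes, with a ratio of 0.0237 (limma adjusted p = 0.0001). ldlra and me1 were named after their values were seen, so their p-values are a description. Phospholipid synthesis gave 2 higher and 9 lower of 20, and 5 and 2 under either scaling. Serine, glycine and one-carbon metabolism gave 3 higher and 10 lower of 22, and 7 and 2 after trimmed-mean scaling. Calcium, phosphate and metal handling gave 2 higher and 14 lower of 27, and 4 and 4 after trimmed-mean scaling. Of 12 estrogen response genes 10 were higher, but these are vitellogenins, nots, fam20cl and esr1, which the rule leaves out by name. Of 15 egg envelope genes, a list that shares zp genes with the ovary markers, 13 were higher and 0 lower as deposited. Their mean log2(TPM + 1) was 3.19 to 4.87 in female DMSO 1, female DMSO 2 and female BPAF 1, where the ovary markers were highest, 0.61 to 1.79 in the other 3 females, 1.52 in male DMSO 3 and 0.05 to 0.17 in the other 5 males. The part of ovary RNA in the egg envelope count was not tested.

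Hypoxia signalling was represented by egln3, a prolyl hydroxylase that marks hypoxia-inducible factors for degradation when oxygen is present. egln3 was at 8.19, 25.36 and 104.46 TPM in female DMSO, at 9.93, 8.06 and 15.93 TPM in female BPAF, at 5.47, 4.54 and 6.13 TPM in male DMSO and at 8.11, 3.62 and 4.99 TPM in male BPAF. The sexes overlapped, because male BPAF 1 was slightly above female BPAF 2, and female DMSO 3 stood far above the other females, with a ratio of 5.23 over all libraries. Among BPAF libraries alone the ratio of egln3 was 2.03. Without female DMSO 3 the ratio of egln3 was below 3, so its place in the set rests on that library. The related egln1b rows also peaked in female DMSO 3, at 17.94 TPM for ENSDARG00000004632, whose ratio was 0.710 as deposited and 1.303 after trimmed-mean scaling, and at 10.62 TPM for ENSDARG00000105156, which was listed at 0 in all 6 males.

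Membrane, hormone and conjugation genes made up a further group, led by aqp12. aqp12 belongs to a branch of the aquaporins that sits mainly inside cells and is best known from the exocrine pancreas of mammals. aqp12 was at 2037.59, 2080.60 and 1617.69 TPM in female DMSO, at 1672.00, 2081.65 and 2308.66 TPM in female BPAF, at 393.75, 400.97 and 605.66 TPM in male DMSO and at 434.89, 391.56 and 411.14 TPM in male BPAF. Its female mean of 1966 ± 267 TPM was 4.47 times its male mean of 440 ± 82.8 TPM, without overlap. The summed level of 19 exocrine pancreas marker rows ran from 249 to 648 TPM in females and from 152 to 738 TPM in males, with overlapping sexes, and the part of exocrine pancreas RNA in the aqp12 level was not tested. The 6 other aquaporins whose sex means summed to 2 TPM or more were all lower in females, with ratios of 0.0182 to 0.403, and remained below 1 after trimmed-mean scaling.

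IYD bears the symbol of iodotyrosine deiodinase, the enzyme that recovers iodide from iodinated tyrosines. IYD was at 38.67, 36.40 and 39.60 TPM in female DMSO, at 59.23, 41.45 and 31.71 TPM in female BPAF, at 0.11, 0.05 and 0.04 TPM in male DMSO and at 0.42, 0.16 and 0.19 TPM in male BPAF. The lowest female library stood 75.5 times above the highest male library, and the ratio of means was 254.7. RAMP3, a partner protein that sets the ligand preference of calcitonin-family receptors, was at 30.96, 24.48 and 21.26 TPM in female DMSO, at 11.52, 27.40 and 20.88 TPM in female BPAF, at 2.72, 6.19 and 1.76 TPM in male DMSO and at 4.95, 8.58 and 3.21 TPM in male BPAF. Its ratio was 4.98 without overlap, whereas ramp2 had a ratio of 0.209, or 0.396 after trimmed-mean scaling. sult3st3 encodes a cytosolic sulfotransferase, of the enzymes that attach sulfate to steroids and foreign compounds, and sult3st3 was at 16.60, 26.84 and 30.23 TPM in female DMSO, at 30.50, 44.08 and 8.97 TPM in female BPAF, at 2.5, 4.95 and 3.82 TPM in male DMSO and at 3.80, 10.24 and 5.90 TPM in male BPAF. The sexes overlapped through female BPAF 3 and male BPAF 2, and its relative sult3st2 ran the other way, with a ratio of 0.278, or 0.518 after trimmed-mean scaling.

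The remaining annotated genes act in matrix, growth control and the cytoskeleton. fbln5, an extracellular glycoprotein of elastic fibres, was at 12.34, 17.56 and 13.12 TPM in female DMSO, at 20.86, 13.54 and 13.61 TPM in female BPAF, at 5.16, 3.25 and 3.76 TPM in male DMSO and at 3.93, 4.6 and 3.80 TPM in male BPAF. Its ratio was 3.72, with every female library at least 2.39 times above every male library. mych, a transcription factor of the Myc family, was at 6.90, 11.49 and 6.45 TPM in female DMSO, at 33.10, 16.72 and 8.11 TPM in female BPAF, at 1.92, 1.16 and 2.49 TPM in male DMSO and at 6.18, 2.03 and 4.56 TPM in male BPAF. Its ratio was 4.51. Of the 4 other Myc genes whose sex means summed to 2 TPM or more, 3 had lower female means. The other was mycla, with a ratio of 3.10 and overlapping sexes. mycla was at 3.31, 2.55 and 0.69 TPM in female DMSO and at 6.65, 0.22 and 0.55 TPM in female BPAF. Its male mean was 0.75 TPM, so its higher female mean rests on female DMSO 1, female DMSO 2 and female BPAF 1. The ovary markers were highest in the same libraries. mycb, the most abundant Myc gene here, had a ratio of 0.468, or 0.896 after trimmed-mean scaling, and myclb turned from 0.961 to 1.68. fam49ba, whose mammalian counterpart CYRIB binds Rac and restrains actin branching, was at 5.62, 11 and 5.42 TPM in female DMSO and at 20.63, 11.56 and 7.25 TPM in female BPAF. In males fam49ba was at 1.43, 1.19 and 2.81 TPM (DMSO) and at 3.67, 3.06 and 5.90 TPM (BPAF), and the highest male lay above the lowest female. mych and fam49ba were each highest in female BPAF 1 among the females.

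A pair of clone-named neighbours, si:dkey-241l7.4 and si:dkey-241l7.2, followed individual libraries rather than sex alone. si:dkey-241l7.4 (ENSDARG00000089478) was at 221.44, 75.39 and 9.47 TPM in female DMSO, at 133.45, 5.03 and 8.92 TPM in female BPAF, at 8.28 TPM in male DMSO 3 and listed at 0 in the other 5 males. si:dkey-241l7.2 (ENSDARG00000105335) was at 160.60, 39.19 and 8.39 TPM in female DMSO, at 119.94, 5.23 and 31.33 TPM in female BPAF, at 6.37 TPM in male DMSO 3 and listed at 0 in the other 5 males. The summed level of 25 ovary and oocyte marker rows was 427.59, 143.53 and 30.03 TPM in female DMSO, 472.67, 7.34 and 36.56 TPM in female BPAF, 1.95, 0.91 and 31.73 TPM in male DMSO and 9.3, 6.01 and 3.07 TPM in male BPAF. The same 3 female libraries were highest in the markers and in si:dkey-241l7.4 and si:dkey-241l7.2, and male DMSO 3 was the highest male in all of them.

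Of the 25 ovary and oocyte marker rows, 17 were tested, and 12 were higher in females as deposited, with 0 lower. Of all tested genes, 3.94% were higher and 55.4% lower as deposited. Egg coat and oocyte genes such as zp2.1 (54.72, 25.97 and 6.50 TPM in female DMSO and 72.68, 1.65 and 4.21 TPM in female BPAF) and zar1 (23.84, 7.5 and 1.19 TPM, then 25.69, 0.58 and 3.01 TPM) were likewise highest in female DMSO 1, female DMSO 2 and female BPAF 1. Of the markers of the ovary's somatic cells, foxl2a was at 0 in all 12 libraries and cyp19a1a at 0 in 10 of 12. foxl2b was at 0.07 TPM in female DMSO 2, at 0.27 TPM in female BPAF 1 and at 0 elsewhere, and amh was at most 0.05 TPM in females and 0.59 TPM in males. In the 3 female libraries with the highest marker sums (female DMSO 1, female DMSO 2 and female BPAF 1), si:dkey-241l7.4 averaged 143 TPM, against 7.81 TPM in the other 3 females, and si:dkey-241l7.2 averaged 107 TPM against 14.98 TPM. The same quotient for the other 22 genes ran from 0.338 (egln3) to 2.17 (wu:fi09b08), with 0.999 for CABZ01042594.1, 0.966 for rtn1a and 1.06 for BX539332.1. The part of ovary RNA in the levels of si:dkey-241l7.4 and si:dkey-241l7.2 was not tested. Without those 3 female libraries the rule finds 28 genes, which hold 22 of the 24. The genes lost were mid1ip1l and fam49ba, at ratios of 2.26 and 2.68 in the remaining females over all males. si:dkey-241l7.4 and si:dkey-241l7.2 still met the rule, at ratios of 5.66 and 14.1. Their lowest female library, female BPAF 2, was among those kept, and male DMSO 3 supplied their whole male means. For both genes female BPAF 2 lay below male DMSO 3. The females kept still held ovary markers, at 7.34 to 36.56 TPM, so these ratios do not tell ovary RNA from liver RNA. In the RefSeq gene order of the assembly GRCz12tu, the 5 si:dkey-241l7 genes stand in a row, with 1 gene between the 2 described here, and no other pair among the 17 matched genes lies within 10 genes of each other. The other 3 genes of that clone and 7 rows of the clone si:dkeyp-98a7 were also higher in females, each with its highest value in female DMSO 1 or female BPAF 1.

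**Figure D3:**
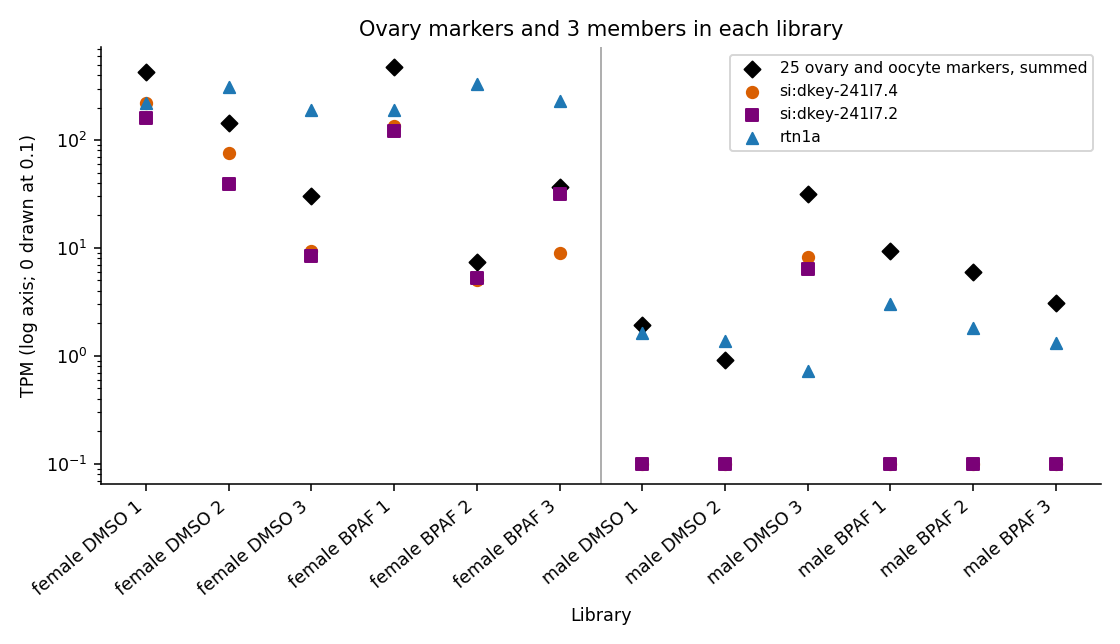
Summed TPM of the 25 ovary and oocyte marker rows (diamonds) with si:dkey-241l7.4 (circles), si:dkey-241l7.2 (squares) and rtn1a (triangles) in each of the 12 libraries, on a log axis with 0 drawn at 0.1 and a vertical line between the sexes. The markers and the 2 si:dkey-241l7 genes are high in the same 3 female libraries, whereas rtn1a stays between 190.56 and 330.74 TPM in all 6 females.

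The thresholds of the rule cut through a continuous range. Just inside the ratio of 3 lay mid1ip1l (3.02), CABZ01035356.1 (3.25) and zgc:154058 (3.27). The neighbours outside were sought only among genes with descriptive symbols not excepted by name. Just outside the ratio of 3, these were sec61a1 (2.90), eef1b2 (2.83) and eif5a (2.81). Just inside the level of 5 TPM lay si:dkey-241l7.4, si:dkey-241l7.2 and fam49ba, with lowest female values of 5.03, 5.23 and 5.42 TPM. Just outside that level, the neighbours so sought were raly (4.17 TPM), lmf2b (3.98 TPM) and ppm1la (3.47 TPM). After trimmed-mean scaling all 24 ratios were larger, the lowest being 5.44 for mid1ip1l, and the number of genes that meet the rule rose to 101. With DMSO libraries alone 23 of the 24 genes had a ratio of 3 or more, with fkbp11 at 2.68 as the exception. With BPAF libraries alone 16 did, and 5 were below it, namely zgc:154058 (2.79), CABZ01035356.1 (2.55), mid1ip1l (2.35), egln3 (2.03) and insig1 (1.89). The other 3, wu:fi09b08, si:dkey-241l7.4 and si:dkey-241l7.2, had no ratio there because every male BPAF library was listed at 0.

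Among the females, the 24 genes ranged from steady to very uneven. Their median coefficient of variation over the 6 female libraries was 31.1%, beside 22.4% for the 2011 genes whose lowest female value was 5 TPM or more. Under 25% were 9 of the 24 genes and 58.6% of the 2011, and over 75% were 5 of the 24 and 1.94% of the 2011. Those 5 were egln3 (132%), si:dkey-241l7.4 (116%), si:dkey-241l7.2 (106%), insig1 (92.6%) and wu:fi09b08 (85.9%). The steadiest were CABZ01035356.1 (7.38%), snd1 (8.35%), zgc:154058 (9.83%), aqp12 (13.6%) and CABZ01042594.1 (16.5%). These shares describe the list, which the rule shaped, and were not tested.

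The genes did not peak in the same females. The highest female library was female BPAF 1 for 6 genes, female DMSO 1 for 5, female DMSO 2 and female BPAF 2 for 4 each, female DMSO 3 for 3 and female BPAF 3 for 2. Among the 2011 genes, 27.1% were highest in female BPAF 1, 23.3% in female DMSO 2 and 17.3% in female DMSO 3. The shares were 13.5% in female BPAF 3, 11.4% in female BPAF 2 and 7.41% in female DMSO 1. The counts of the 24 genes were not tested against these shares. In the males, 10 of the 24 genes were highest in male BPAF 1, the library with the most genes at 1 TPM or more. The share of all genes highest in male BPAF 1 was not counted, so nothing is read from that number.

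**Figure D4:**
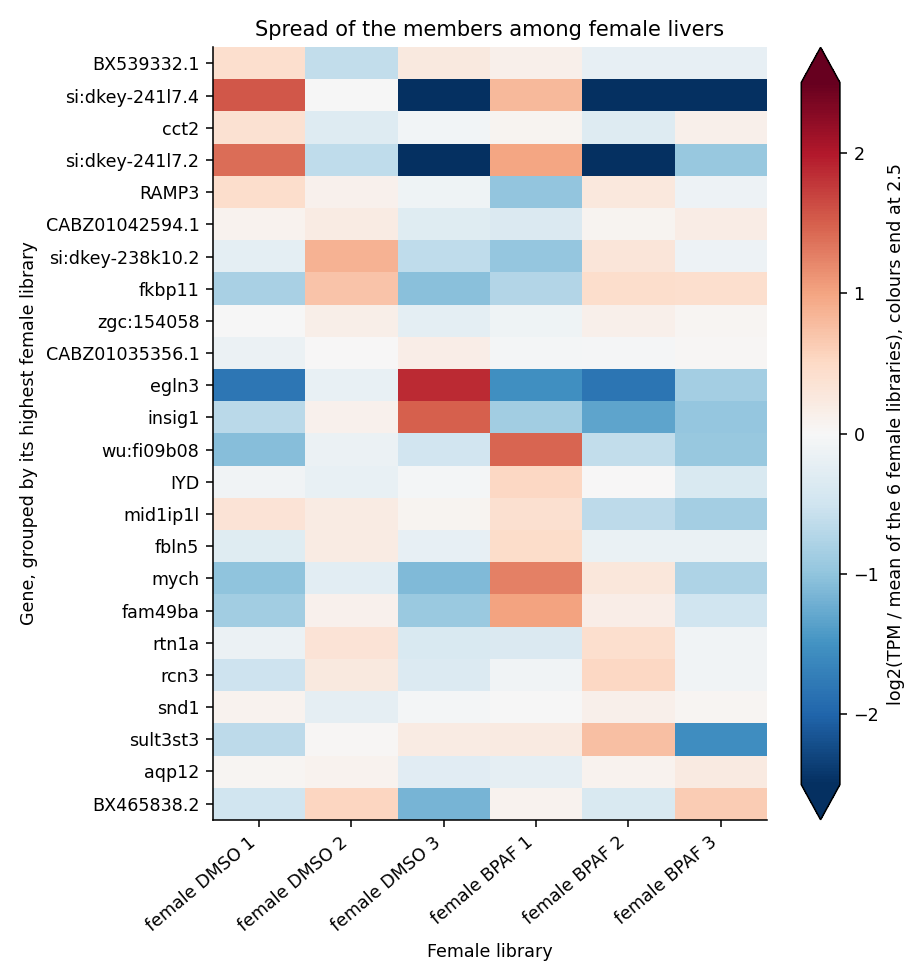
Level of each of the 24 genes in the 6 female libraries as log2(TPM / mean of the 6), grouped by the library in which the gene was highest, with colours that end at 2.5. egln3 and insig1 are highest in female DMSO 3, the 2 si:dkey-241l7 genes in female DMSO 1, and CABZ01035356.1, snd1 and zgc:154058 hardly vary.

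BPAF exposure gave no detectable change in any of the 24 genes. limma was fitted on log2(TPM + 1) over all 11389 tested genes, with a mean for each of the 4 groups, and a fold change on this scale understates the change of low genes. In females 0 of the 24 genes passed an adjusted p of 0.05, beside 0.0% of all tested genes. At an unadjusted p under 0.05 there was 1 of the 24 (insig1), beside 1.38% of all tested genes. In males 0 of the 24 passed, beside 0.0527% of all tested genes (6 genes, 0.0439% higher and 0.00878% lower). At an unadjusted p under 0.05 there were 2 of the 24 in males, beside 6.34% of all tested genes. The test of the difference between the sexes, the change in females minus the change in males, called 0 of the 24 and 0.0% of all tested genes, with 1 of the 24 and 3.23% at an unadjusted p under 0.05. The adjusted p was 1.0 for all 24 genes in females, 0.759 to 0.998 in males and 0.995 to 0.997 for the difference. Groups of 3 libraries leave changes of moderate size undetectable here, so these results do not show that the genes were unaffected.

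The median log2 change of the 24 genes was 0.01 in females, beside -0.01 for all tested genes, and 0.18 in males, beside 0.24. The median of the difference between the sexes was -0.15, beside -0.25. The change was positive for 12 of 24 genes in females and 15 of 24 in males, against 47.8% and 80.2% of all tested genes. The medians in males and of the difference turned sign under trimmed-mean scaling, to -0.13 and 0.20, as did those of all genes, to -0.07 and 0.09.

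Of the 24 genes insig1 had the smallest unadjusted p in females. Its 3 female BPAF libraries, at 7.15 to 9.78 TPM, all lay below the 3 female DMSO libraries, at 11.15 to 50.21 TPM, a log2 change of -1.27 ± 0.48 (SE; limma adjusted p = 1.0). No other gene of the 24 had groups apart in females, while 4.48% of all tested genes did, 2.12% in the lower direction. In males insig1 changed by 0.42 ± 0.48 (limma adjusted p = 0.846), and the difference between the sexes was -1.69 ± 0.68 (limma adjusted p = 0.995). Without female DMSO 3 the female change of insig1 was -0.70 ± 0.41, and over all fits with a library left out it stayed between -1.74 and -0.70. For egln3 the female change was -1.31 ± 0.67 and -0.39 ± 0.47 without female DMSO 3, but -2.15 ± 0.53 without female DMSO 1, each with a limma adjusted p of 1.0. The groups of egln3 overlapped over all libraries.

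None of the other 23 genes reached an unadjusted p under 0.05 in females. mych was at 6.45 to 11.49 TPM in female DMSO and 8.11 to 33.10 TPM in female BPAF, a log2 change of 0.97 ± 0.47, and fam49ba changed by 0.71 ± 0.40, both with overlapping groups and a limma adjusted p of 1.0. In the order of female level, the 5 most abundant genes changed by -0.03 ± 0.49 (CABZ01042594.1), 0.08 ± 0.22 (aqp12), 0.52 ± 1.45 (wu:fi09b08), -0.26 ± 0.42 (si:dkey-238k10.2) and 0.05 ± 0.32 (rtn1a). The widest errors belonged to wu:fi09b08 and to si:dkey-241l7.4, which changed by -1.49 ± 1.29.

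In males, IYD and fam49ba were higher in every BPAF library than in every DMSO library, and fkbp11 was lower. Of all tested genes, 10.3% had groups apart in males, 9.71% upward and 0.562% downward. The log2 change was 0.23 ± 0.25 for IYD, whose male values stayed under 0.5 TPM, 0.90 ± 0.40 for fam49ba and -0.66 ± 0.46 for fkbp11, with limma adjusted p-values of 0.837, 0.772 and 0.794. CABZ01035356.1 had the smallest unadjusted p in males, with a change of 0.79 ± 0.34 (limma adjusted p = 0.759), which became 0.38 ± 0.34 after trimmed-mean scaling. The estrogen response, ER, lipid, translation and other fixed lists held 0 called genes in the female contrast, the male contrast and their difference. Of all 11389 tested genes only 0, 6 and 0 were called in these, so nothing is read from the list counts.

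**Figure D5:**
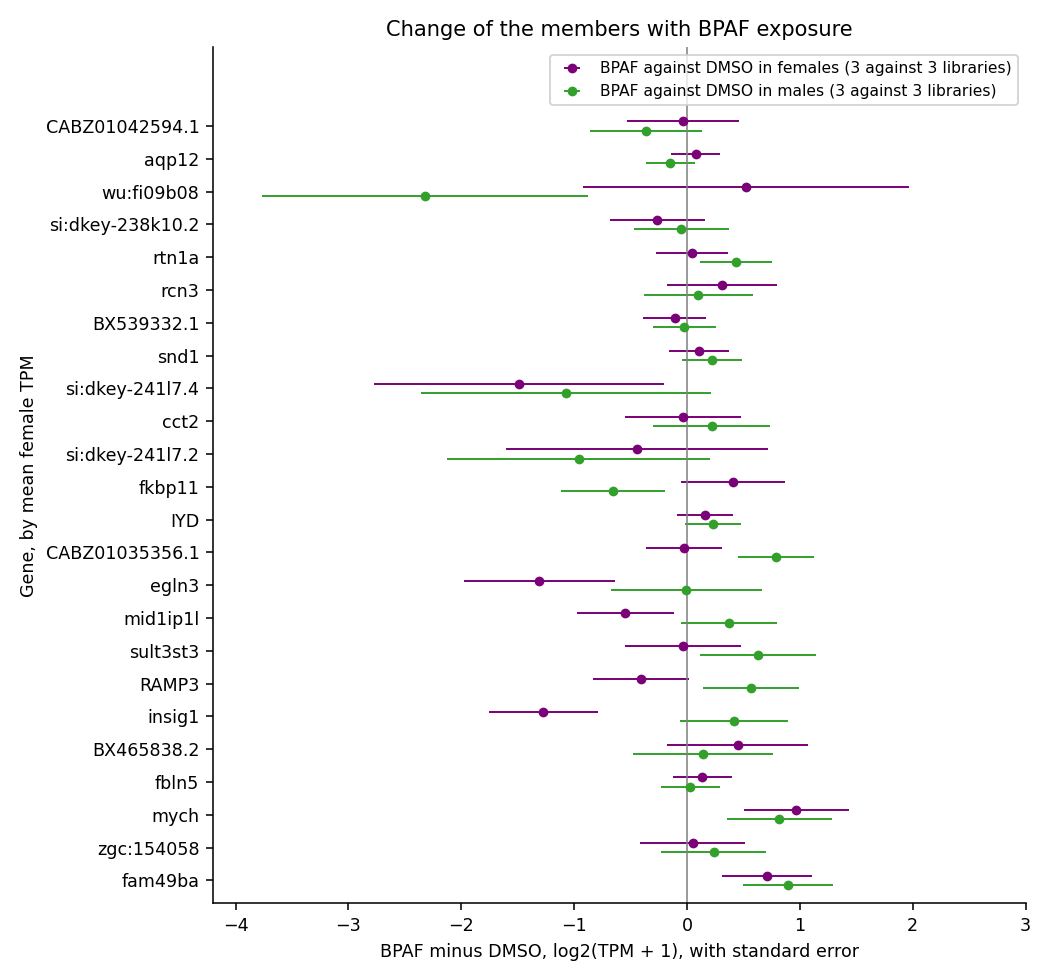
Change of each of the 24 genes with BPAF, as BPAF minus DMSO on the log2(TPM + 1) scale with its standard error, for females and for males (3 against 3 libraries each). Most error bars cross 0, insig1 and egln3 lie lowest among the annotated genes in females, and none passed an adjusted p of 0.05.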

How the data were processed

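Liver RNA was extracted with TRIzol and made into libraries with an Illumina TruSeq RNA kit, per the labels' protocols. HISAT2 2.1.0, Cufflinks and RSEM are named, with no role or order, per the submitters' processing notes. The genome build was not given in the sources used here. Nor was the way reads were split between near-identical copies, whose values are uncertain. The deposited table holds 1 TPM value per gene and library, which the authors made from their reads. The unit was inferred from the values, since the file header names none: library totals ran from 978504.61 to 992375.41. The table gives no read counts, so depth is unknown and no count test was run. The columns not assigned to a sample were 0.

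Groups were taken from the sample titles. The female and male thresholds above were applied to the deposited values. Exposure was tested with limma 3.58.1 in R 4.3.3 on log2(TPM + 1), with an intensity trend, for genes at 1 TPM or more in at least 3 libraries, with 1 model over all 12 libraries (8 residual degrees of freedom). The p-values were adjusted by the Benjamini-Hochberg method over all 11389 genes, with a call at 0.05. The procedure was tested on simulated data, with changes planted in exposed females alone and independent noise in each library. That simulation does not cover changes in males or paired libraries. The females-against-males test of the list genes, with the 24 genes left out, was added after the data were seen. The 24 genes and the lists were chosen with earlier results of these data known. Genes were named where they led by female level or by ratio, stood nearest a threshold, had the highest or lowest female spread, lay on a list, or had the smallest p for exposure. fbln5, BX465838.2 and zgc:154058, the relatives of the 24 genes and the list genes named as examples were chosen after their values were seen. RefSeq (GRCz12tu) served for gene order alone.

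Alternatives were pseudocounts of 0.1 and 5, other filters, trimmed-mean scaling, quantile normalization, array quality weights, each sex alone, replicate blocks and leaving out each library in turn. Male DMSO and male BPAF libraries of the same number deviated together from their group means (correlations over genes of 0.327, 0.347 and 0.376, each library highest with its own number), so the numbers were taken to pair the male libraries. The pairing comes from the data, since the labels do not explain the numbers. The standard errors and p-values of the Results come from the model without this pairing, and the replicate blocks were run only as alternatives.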

Additional observations from a re-analysis of the deposited data

How the results depend on the processing

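The number of genes called for BPAF was 0 of 24 in females, in males and for the difference between the sexes under every alternative run (10, 10 and 9 settings, and 12 fits each with a library left out). The smallest adjusted p of any of the 24 genes over all of these was 0.388, for CABZ01035356.1 in males with the replicate block within each sex. With the replicate number as a block the count was again 0 of 24 in each contrast. Over all genes the male count fell from 6 to 1 with the replicate block and to 2 with the block within each sex. Same-numbered female libraries correlated at 0.226, 0.0526 and 0.104, and replicate 3 was not highest with its own number, so the female numbers were not taken as pairs.

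The number of genes that meet the rule was 24 as stated. It was 57 at a ratio of 2, 11 at a ratio of 5, 70 with a lowest female value of 1 TPM, 15 with 10 TPM, 101 after trimmed-mean scaling and 60 with DMSO libraries alone. It was 28 with medians and with BPAF libraries alone. With a library left out it ran from 22 to 42, and the 42 came without female BPAF 2. Without female DMSO 3, egln3 and insig1 did not reach the ratio of 3. It was 28 without the 3 females highest in ovary markers, a setting chosen after seeing the data.

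The median log2 change of the 24 genes in males was 0.18, and it was -0.1316 after trimmed-mean scaling, -0.03831 after quantile normalization and 0.0227 with array quality weights, with 0.0538 to 0.2703 when a library was left out (0.0538 without male BPAF 1). The median difference between the sexes was -0.15, and it was 0.1959 after trimmed-mean scaling and 0.09065 after quantile normalization, with -0.2827 to 0.01382 when a library was left out (-0.2827 without female DMSO 3 and 0.01382 without female BPAF 3). The cause was not tested. The median in females ran from 0.01195 to 0.0625, and from -0.03465 to 0.09824 when a library was left out. Of 1555 changes of single genes under an alternative, 1521 lay within 1 standard error of the stated value and 34 moved by more. The unknown depth, 3 libraries per group and the different composition of female and male libraries limit what can be seen.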
